A study of Mus musculus with 87 samples.

Results

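Private ETn loci were examined in Chr4-cl WT and KO/WT mice. A private locus was a cluster of captured reads that reached 10 RPM (reads per 1e+06 captured reads of the library) in 1 of these animals and held no read in the main library, the first listed, of any other animal or cell line. There were 340 such loci among 5018 loci of the series, and they lay in 13 of 25 animals. Members were chosen by these read counts, so their total, their RPM and their absence from other main libraries describe the choice. They carry no test, apart from a comparison of numbers per animal between matings, whose limits are given with it.

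ETn elements (early transposons) belong to the endogenous retroviruses and are still able to retrotranspose in mice. They encode no proteins of their own for this and depend on related elements that do, and their insertions in or near genes are a well-known source of spontaneous mouse mutations. KRAB zinc finger proteins bind such elements in the early embryo and recruit the corepressor KAP1, which leads to repressive chromatin. An insertion that arises after fertilisation is carried by only part of an animal's cells.

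In the study, genomic DNA was enriched with RNA probes against ETn long terminal repeat ends and read from both ends of each fragment, and reads were kept whose mate lay in an ETn. Chr4-cl is a group of neighbouring KRAB zinc finger genes on chromosome 4 that had been deleted in C57BL/6 (B6) ES cells, so that all mice derive from that engineered allele or its WT counterpart after crossing to 129X1/SvJ. The question for these animals was where new ETn insertions lie in mice that keep at least 1 copy of the cluster. Depth ran from 563472 to 865136 captured reads per library, so that 1 read was worth 1.16 to 1.77 RPM.

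Of the 25 animals, 11 were labelled WT and 14 KO/WT. The labels give 5 as B6x129X1/SvJ (F1) and 20 as B6x129X1/SvJ (F2). The F1 animals were T3913 (ear, KO/WT) and T3921 (tail, KO/WT) and 3 of their offspring labelled WT (tail), which the text of the study calls heterozygous. The F2 animals were 3 KO/WT parents without sequenced parents (BA27227 from ear, BA27228 and BA27084 from tail) and the offspring of matings 1, 2 and 3, all from tail. Mating 1, of BA27227 with a KO male, gave 8 KO/WT animals. Mating 2, of BA27228 with BA27084, gave 4 WT and 1 KO/WT animal. Mating 3, of C7416 from mating 1 with C7249 from mating 2, gave 4 WT animals. No treatment is given, and tails of the 3 matings were juvenile. The genotype labels were not checked against reads here. Some ancestry labels lack a digit of a parent's number and were read as the parent of the same litter.

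The strongest read clusters within introns are shown first, since they carry the most reads of any members. Each stretch is 150 bases of the plus strand of NCBIM37 (mm9), taken from the middle of the cluster. They lie at chr7:30886420-30886569 in Zfp260, a zinc finger protein gene, at chr19:10485129-10485278 in Syt7, a calcium sensor of vesicle fusion, and at chr4:124364211-124364360 in Utp11l, whose product takes part in making ribosomes. Reads lie beside an insertion, so these are reference bases of the landing region and not the insertion point.
Zfp260 intron, BA27228: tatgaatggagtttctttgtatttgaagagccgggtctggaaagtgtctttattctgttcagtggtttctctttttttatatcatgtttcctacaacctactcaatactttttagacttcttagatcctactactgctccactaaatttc
Syt7 intron, M05139: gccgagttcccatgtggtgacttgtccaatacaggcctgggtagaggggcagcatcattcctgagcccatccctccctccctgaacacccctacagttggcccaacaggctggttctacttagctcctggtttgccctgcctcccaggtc
Utp11l intron, BA27084: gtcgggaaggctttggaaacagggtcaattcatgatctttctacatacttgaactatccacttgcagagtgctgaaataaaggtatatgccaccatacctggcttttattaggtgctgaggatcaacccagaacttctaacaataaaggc

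The clusters of highest RPM that overlap coding exons are shown for what lies at the landing region, with coding bases in capitals on the plus strand. All of these genes are on the minus strand. The stretches are chr14:32005666-32005815 in Nisch, chr11:97787127-97787276 in Plxdc1, chr11:97590815-97590964 in Pip4k2b, chr14:73765559-73765708 in Itm2b and chr15:50663292-50663441 in Trps1.
Nisch, M05667: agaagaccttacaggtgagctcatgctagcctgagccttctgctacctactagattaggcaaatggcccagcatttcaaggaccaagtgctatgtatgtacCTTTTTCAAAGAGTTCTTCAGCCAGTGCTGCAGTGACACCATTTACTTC
Plxdc1, BA27084: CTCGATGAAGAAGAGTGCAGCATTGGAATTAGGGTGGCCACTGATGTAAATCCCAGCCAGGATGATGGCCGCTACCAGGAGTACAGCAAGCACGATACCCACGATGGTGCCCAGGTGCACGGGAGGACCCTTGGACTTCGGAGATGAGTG
Pip4k2b, BA27228: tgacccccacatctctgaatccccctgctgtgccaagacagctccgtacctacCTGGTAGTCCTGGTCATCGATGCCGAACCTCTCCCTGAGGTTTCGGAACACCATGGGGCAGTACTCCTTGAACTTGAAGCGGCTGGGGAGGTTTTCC
Itm2b, M05141: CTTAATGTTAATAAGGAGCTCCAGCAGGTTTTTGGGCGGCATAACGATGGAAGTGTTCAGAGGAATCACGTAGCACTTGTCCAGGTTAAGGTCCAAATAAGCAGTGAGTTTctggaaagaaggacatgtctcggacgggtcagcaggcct
Trps1, C7416: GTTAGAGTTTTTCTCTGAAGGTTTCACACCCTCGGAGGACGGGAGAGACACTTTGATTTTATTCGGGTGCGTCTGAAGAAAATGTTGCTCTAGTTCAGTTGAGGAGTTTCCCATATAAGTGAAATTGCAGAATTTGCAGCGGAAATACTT

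These stretches held 49 coding bases in Nisch, 150 in Plxdc1, 97 in Pip4k2b, 111 in Itm2b and 150 in Trps1. The remaining lower case bases are intron, so the clusters in Nisch, Pip4k2b and Itm2b run across an exon boundary.

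Over the series, 18.8% of loci (942 of 5018) were private to 1 main library, and the 340 loci described here are part of these. By animal, no private locus was found in the 5 F1 animals, in BA27227, in 5 of 8 mating 1 animals or in the mating 2 WT animal H04405. Among the parents of mating 2, BA27228 carried 24 and BA27084 carried 60. In mating 1, C6767 carried 38, C7416 carried 25 and C6927 carried 2. In mating 2, the WT animals C5733, C5736 and C5731 carried 18, 18 and 17, and the KO/WT animal C7249 carried 19. In mating 3, the WT animals M05139, M05669, M05667 and M05141 carried 55, 28, 25 and 11. WT animals together held 172 loci and KO/WT animals 168.

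**Figure D1:**
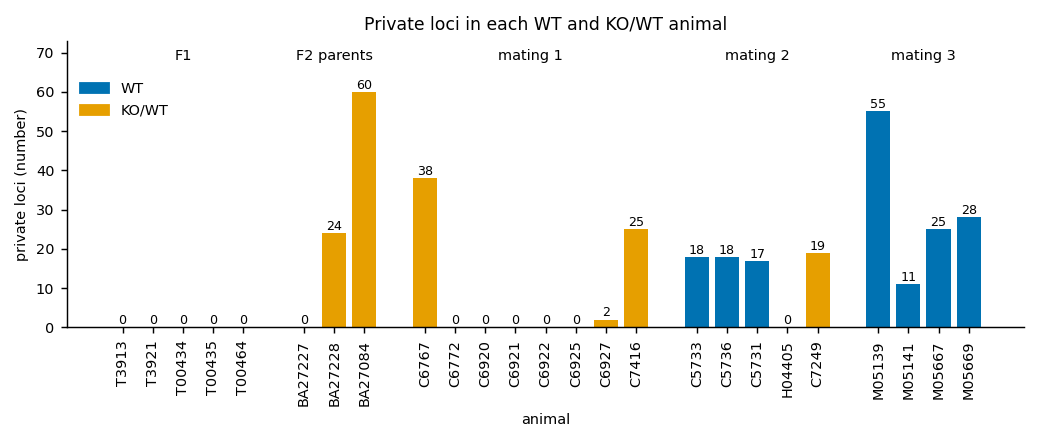
Number of private loci (vertical axis) in each of the 25 animals (horizontal axis), by family, with WT in blue and KO/WT in orange. The F1 animals are all at 0, while mating 3 runs from 11 to 55.

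The library of C5733 stood apart. It held 637 loci called in that animal alone, against 62 or fewer in each of the other 24, and 18 of the 637 held no read in another main library. It was also the shallowest of the 25 libraries. Without C5733 there were 323 private loci. The parents BA27228 and BA27084 have no sequenced parent, so inheritance of their 84 loci cannot be told apart from new insertion by pedigree, and without these 2 animals 256 loci were left.

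Numbers per animal were compared between the juvenile tails of the 3 matings. The rule fixes what is counted in each animal and made no use of the mating, but it counts a locus only where no other main library, littermates included, holds a read. The 4 mating 3 animals carried 29.8 ± 18.4 private loci (SD, n = 4), the 5 mating 2 animals 14.4 ± 8.08 (n = 5) and the 8 mating 1 animals 8.13 ± 14.9 (n = 8). Mating 3 exceeded mating 1 in 71.9% more of the animal pairs than the reverse, with an exact two-sided permutation p of 0.0364 that became 0.109 after Benjamini-Hochberg adjustment over 3 pairs of matings. The same excess was 60% for mating 3 over mating 2 (exact p 0.167, adjusted 0.250) and 32.5% for mating 2 over mating 1 (exact p 0.357, adjusted 0.357). None of the 3 differences passed 0.05 after adjustment. Without C6767 the adjusted exact p for matings 1 and 3 was 0.0273, and without M05141 it was 0.0455 for matings 1 and 3 and for matings 2 and 3. All mating 1 animals were KO/WT and all mating 3 animals WT, so mating and genotype cannot be told apart, and littermates share parents. Each mating had a single pair of parents, so these permutation p-values treat littermates as independent. They do not measure a difference between matings in general. The number of sequenced littermates, in which a read removes a locus, also differed between matings.

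Most private loci were supported by few reads. Their RPM had a median of 13.9 (quartiles 11.7 and 19.1), from 10.1 to 195, and the reads behind them a median of 10, from 6 to 143. There were 191 loci under 15 RPM, 77 at 20 RPM or more and 18 at 30 RPM or more. For scale, the 2345 loci that every B6 main library called, here termed fixed in B6, had a median of 419 to 437 RPM in these 13 animals. Private loci stood at a median of 3.2% of that level, from 2.35% to 45.0%, and 4 reached 10%. Whether a locus was mosaic, that is carried by part of an animal's cells, was not measured directly.

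**Figure D2:**
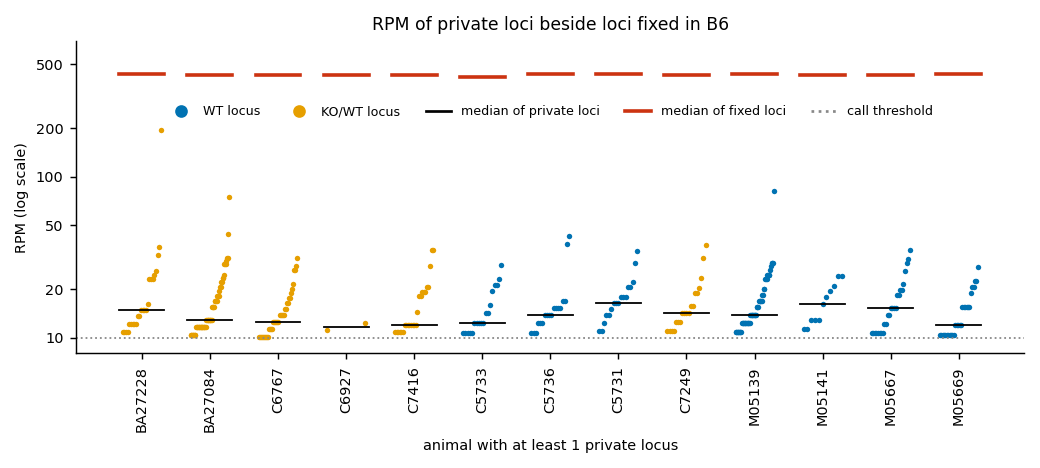
RPM on a log scale (vertical axis) of each private locus in the 13 animals that have one (horizontal axis), WT in blue and KO/WT in orange, with the median of private loci as a black line and of loci fixed in B6 as a red line. Nearly all points lie near the dotted threshold of 10 RPM, far below the red lines, and the Zfp260 locus at 195 RPM is the highest.

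At the threshold, the lowest members held 10.1 RPM (8 reads, C6767), and the nearest loci below held 9.87 RPM (8 reads, C6927) and 9.74 RPM (6 reads, M05141). A further 648 loci of 5 to 10 RPM met the rest of the rule. Another 12 loci of 10 RPM or more were left out for a single read in 1 other main library, and 48 for 5 reads or fewer. Reads of other animals lay within 1000 bp of 41 members (12.1%), while 18.0% of all windows of 444 bp in the reference had a read of any main library that near and 4.90% had one inside.

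The highest locus of all lay in an intron of Zfp260 in BA27228, with 143 reads and 195 RPM, at chr7:30886158-30886832. It reached 45.0% of the level of loci fixed in B6. The next was in an intron of Syt7 in M05139, with 53 reads and 81.9 RPM, at chr19:10484877-10485530. In BA27084 the highest was in an intron of Utp11l, with 58 reads and 75.3 RPM, at chr4:124363937-124364635. No other member came above 44.2 RPM.

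Other introns among the loci of 30 RPM or more were those of Spata3 (C7249, 37.8 RPM), of Ptk2, the focal adhesion kinase (M05667, 35.3 RPM), and of Adcy3, an adenylyl cyclase (C7416, 35.1 RPM). Ttf2, a transcription termination factor (C6767), and Kif17, a kinesin motor (C7249), each held a locus of 31.5 RPM. Between genes, the loci nearest to Pdp1, a phosphatase of the pyruvate dehydrogenase complex, and to Pfn2, a profilin, held 44.2 RPM (BA27084) and 36.7 RPM (BA27228), 66859 and 60130 bp away. In C5736, loci of 43.1 and 38.5 RPM lay 632654 bp from Slc4a3, an anion exchanger, and 446062 bp from the homeobox gene Meis1. Loci nearest to Slc1a3, a glial glutamate transporter (C7416, 35.1 RPM), and Plekha6 (C5731, 34.5 RPM) lay 123893 and 37542 bp away. Those nearest to 1700009N14Rik and Plek2, both in BA27084, held 31.2 RPM each. A locus in an exon of the non-coding gene Gm15786 held 32.7 RPM in BA27228.

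In the animals with no locus above 30 RPM, the highest were in an intron of Prkce, a protein kinase C (C5733, 28.4 RPM), in an untranslated exon of Zbtb34 (M05669, 27.6 RPM), 2184 bp from Cdv3 (M05141, 24.4 RPM) and 170109 bp from Tcf7l2, a transcription factor of the Wnt pathway (C6927, 12.3 RPM). The highest member of an animal thus ran from 12.3 to 195 RPM, while the median ran from 11.7 to 16.5 RPM.

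Read clusters were narrow. Their width had a median of 444.5 bp (quartiles 351 and 547), from 96 to 1889 bp, whereas loci fixed in B6 had a median of 3009 bp. Only the Vmo1 locus of C5731 was wider than 1000 bp, and the narrowest lay on the X chromosome 5501 bp from Gpr112 in M05141, with 8 reads. Width and reads were correlated over the 340 loci (Pearson's r 0.291, Spearman's rho 0.503), which share libraries and depth, so this is a description.

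Of the 340 loci, 172 overlapped an annotated gene (50.6%, exact 95% interval 45.1 to 56.0%). Intervals here cover counting error alone, because no molecular identifiers mark the captured reads and loci from the same animal share a library. By comparison 41.6% of 5755729 windows of 444 bp overlapped a gene, as did 27.9% of all loci and 23.3% of loci fixed in B6. In protein-coding genes alone the share was 47.9% against 39.1% of windows. Members at 20 RPM or more had 46.8% in genes, those under 15 RPM 53.9%. These differences were not tested over loci. Members needed uniquely mapped reads, whereas the windows and reference bases include repeats where no locus could be called. Shares of members and of the reference are thus not over the same sequence, here and for chromosomes, GC content and distances below. How far this moves the shares was not tested.

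Introns held 137 members, coding exons 18, untranslated exons 11 and exons of non-coding genes 6, while 168 lay between genes. Coding exons were overlapped by 5.29% of members (3.17 to 8.24%) and 4.50% of windows. A further 3.24% of members lay in untranslated exons and 1.76% in exons of non-coding genes. Exons of any kind, coding ones included, were overlapped by 7.03% of windows. These differences were not tested, and no share of windows was worked out for introns or for the distances that follow. Loci between genes lay a median of 39538 bp from the nearest coding gene, 43 of them within 10 kb and the farthest at 1843161 bp. Over members in a protein-coding gene, the median length of that gene was 133 kb, with a gene counted again for each member it held. The median over the list of all coding genes was 15.4 kb. When each coding gene is weighted by its length, the median is 136 kb.

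**Figure D3:**
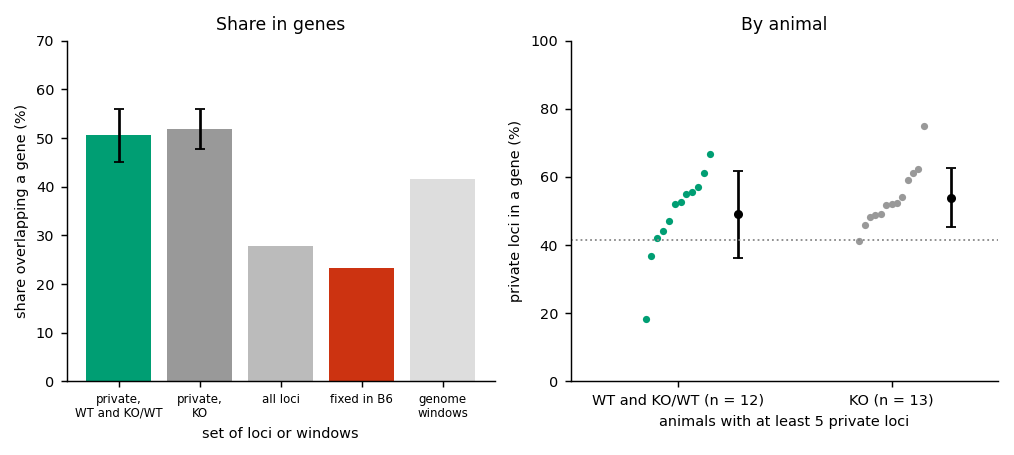
Left, share of loci or windows that overlap a gene (vertical axis, %) for private loci of WT and KO/WT animals, private loci of KO animals, all loci, loci fixed in B6 and windows of the reference, with exact 95% intervals on the private loci. Right, the share in each animal with at least 5 private loci, with mean and SD in black and the windows' 41.6% as a dotted line, where the animals of both groups overlap.

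Of the 18 coding exon clusters, found in 9 animals, the highest was in Nisch, which encodes the integrin-binding protein nischarin (M05667, 20 reads, 30.7 RPM). Plxdc1, a transmembrane protein gene, held 24.7 RPM in BA27084, and Pip4k2b, a phosphoinositide kinase, 23.1 RPM in BA27228. Itm2b, an integral membrane protein, held 21.1 RPM in M05141 and Trps1, a transcriptional repressor, 19.3 RPM in C7416. The locus at Vmo1 held 17.9 RPM in C5731 and that at Narg2 13.9 RPM in C6767. Etnk2, an ethanolamine kinase (M05141), and Dfnb59, needed for hearing (BA27084), each held 13.0 RPM. Slc39a11, a zinc transporter, held 12.4 RPM in C5731. Rit1, a small GTPase (C7416), and Sv2a, a synaptic vesicle protein (M05669), each held 12.1 RPM. These values were from 7 to 20 reads each.

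Members were spread over chromosomes 1 to 19 and X. Chromosome 1 held 30, chromosome 2 held 26, and chromosomes 9 and 11 held 23 each, which was 19.1 and 19.4 per 100 Mb. The lowest autosomal density was 7.66 per 100 Mb on chromosome 12, which held 9. The X chromosome held 8 members (2.35%) in 7 animals, although it has 6.34% of the reference bases of these chromosomes, and private loci of KO animals had 2.37% there. Of 177 members in females 2 were on the X (1.13%, 0.137 to 4.02%), and of 163 in males 6 (3.68%, 1.36 to 7.84%). On the Y chromosome lay 0 of the 163 members in males (exact 95% upper limit 2.24%). The Y chromosome has only 2702555 known bases in this reference, against 162080892 for the X, so the 0 says little. Private loci of KO animals had 2 there (0.338%).

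**Figure D4:**
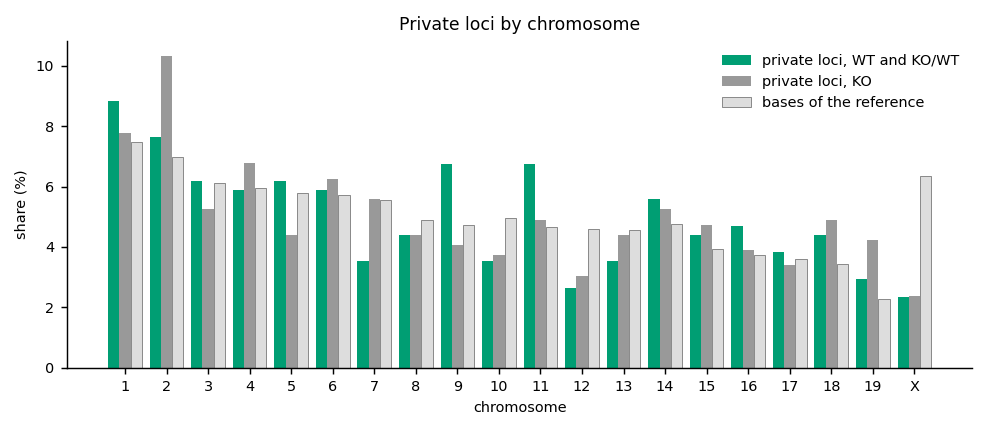
Share of private loci of WT and KO/WT animals (green), of private loci of KO animals (dark grey) and of reference bases (light grey) in percent (vertical axis) on chromosomes 1 to 19 and X (horizontal axis). On X both sets of loci, at 2.35% and 2.37%, lie below the 6.34% of bases.

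GC content under the read clusters had a median of 44.2%, against 41.4% in the windows and 43.5% at private loci of KO animals. Distances to the ETn elements of the reference were also measured. Matches of the study's capture probes were searched in the reference, and 98.6% of loci fixed in B6 had one within 1000 bp. Of the members 0 of 340 did (exact 95% upper limit 1.08%). Among windows of the reference 0.421% did, a share that lies below this limit. The nearest match to a member was 4560 bp away and the median distance 483257 bp. Within 100 kb of a locus fixed in B6 lay 10% of members (7.03 to 13.7%) and 14.7% of windows. The rule asks for no read in other animals, which removes sites beside shared elements.

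Genes that held a member numbered 180, and 3 of them held members in 2 animals. Hpse2, a heparanase-like gene of 599 kb, held a locus of 29.9 RPM in BA27084 and one of 23.2 RPM in M05139. Myo1e, a myosin gene of 193 kb, held 18.5 RPM in M05139 and 16.5 RPM in C5731. Fgfr2, a receptor for fibroblast growth factors that the annotation used here draws over 3009 kb, held 19.5 RPM in C5733 and 13.9 RPM in C5736. These loci lay far apart, at chr7:138085835-138086319 and chr7:139808488-139808888. A locus in introns of overlapping genes was named after the longest coding gene, so a very long gene model can take loci over shorter genes. Private loci of KO animals hit 312 of the 37310 genes in the annotation. Of these 312, 18 also held a member, 10% of the 180 and 5.77% of the 312. The overlap expected from gene length was not worked out. The shared genes had a median length of 491 kb against 106 kb for all genes that held a member. Fgfr2 was among them, with loci in 4 KO animals, and so was Syt7, with 14.8 RPM in the KO animal M05143.

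The closest members of different animals were 4144 bp apart, start to start, on chromosome 6. They were the Gm15786 locus of BA27228 and a locus of 17.0 RPM in an exon of Gm15783 in M05139, a grandchild of BA27228. Within 1 animal the closest were 21225 bp apart, on chromosome 6 in M05139. Of 11 genes known for ETn mutations, namely Fas, Mip, Cacng2, Lep, Gli3, Hk1, Fig4, T, Ptf1a, Fbxw4 and Dysf, only Ptf1a had a member within 100 kb, at 77662 bp. The share of all genes with a member that near was not worked out.

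Further libraries of the same animals were used to see how often a locus was found again. Their reads did not count toward the 10 RPM or the absence of reads by which members were chosen. Regions called in them did help to set the extent of loci, so these libraries were not fully apart from the choice. For the WT animal C5731 a replicate tail library held a read at 17 of 17 members (100%, 80.5 to 100%), and 15 reached 10 RPM there (88.2%, 63.6 to 98.5%). The median RPM was 16.5 in the first library and 17.2 in the second. The Plekha6 locus held 34.5 and 44.3 RPM, and the locus in Vmo1 17.9 and 15.7 RPM. The weakest in the second library, in an intron of Gm20388, held 11.0 and 4.29 RPM. Of 25 loci that the second library called by the same rule, all 25 had a read in the first and 15 were called in both.

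For the KO/WT animal C7416 a tail sample taken in the adult held a read at 18 of 25 members (72%, 50.6 to 87.9%), and 8 reached 10 RPM (32.0%, 14.9 to 53.5%). The median RPM was 12.1 in the first tail and 4.79 in the adult tail. The locus near Slc1a3 held 35.1 RPM in both, and that in Trps1 19.3 and 20.8 RPM. The Adcy3 locus held 35.1 RPM in the first tail and 4.79 RPM, from 3 reads, in the adult. No read was found at the Rit1 locus or at the Hoxd3 locus in the adult tail, where 1 read was worth 1.60 RPM. Of 24 loci that the adult tail called by the same rule, 16 had a read in the first tail (66.7%, 44.7 to 84.4%). C5731 and C7416 differ in genotype and mating as well as in the kind of second sample, so the 2 shares were not compared by a test.

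Near Plekha6, C5731, chr1:135104742-135104891: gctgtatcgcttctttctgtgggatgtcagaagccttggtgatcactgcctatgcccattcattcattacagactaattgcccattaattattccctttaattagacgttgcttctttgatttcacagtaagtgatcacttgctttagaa
Near Slc1a3, C7416, chr15:8784871-8785020: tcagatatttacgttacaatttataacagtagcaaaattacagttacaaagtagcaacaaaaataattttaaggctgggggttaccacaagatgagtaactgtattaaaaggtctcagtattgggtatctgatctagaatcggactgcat
Adcy3 intron, C7416, chr12:4185562-4185711: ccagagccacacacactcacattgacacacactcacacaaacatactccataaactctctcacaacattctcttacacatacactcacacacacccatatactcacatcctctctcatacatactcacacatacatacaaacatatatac
These 150 base stretches (plus strand, NCBIM37) show the landing regions of the loci whose RPM was held or lost in the second sample.

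**Figure D5:**
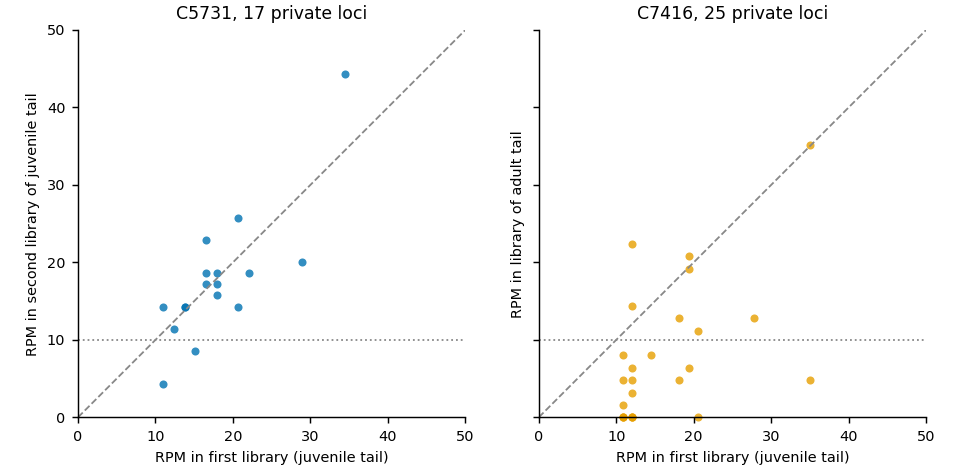
RPM of each member in the animal's first library (horizontal axis) and in its other library (vertical axis), for C5731 (left, replicate tail library) and C7416 (right, adult tail), with equality dashed and 10 RPM dotted. Points of C5731 lie about the dashed line, whereas most of those of C7416 lie below it, 7 of them at 0.

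Of 3698 pairs of a member with a further library of another animal, 2 held a read (0.0541%, 0.00655 to 0.195%), and neither held more than 1. These were the Vmo1 locus of C5731 and the Itm2b locus of M05141. The rule had already asked for no read in the main libraries of those other animals, so this low share was largely fixed by the choice of members. The interval treats the pairs as independent although they share libraries. No member could show transmission, since the rule asks for no read in the main libraries of descendants. In 7 animals with sequenced descendants, loci were therefore sought whose reads in other main libraries lay in descendants alone. Only BA27228 had such a locus, which is not a member. It held 34.0 RPM near Stx16 at chr2:173813732-173814260, with 1 read in its offspring C5733 and no call in any descendant.

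The most similar loci were the 591 private loci that the same rule found in 18 of 27 KO animals of the same strain. In animals with at least 5 private loci, 49.0 ± 12.8% of loci were in a gene in WT and KO/WT animals (SD, n = 12) and 53.9 ± 8.72% in KO animals (n = 13). The difference of -4.89 percentage points did not pass the exact two-sided permutation test (p = 0.283, adjusted over 2 measures 0.566). Within matings it was -9.98 in mating 1, 3.85 in mating 2 and -6.25 in mating 3. The median width was 436.2 ± 54.0 bp (n = 12) against 441.7 ± 60.4 bp (n = 13), a difference of -5.48 bp (exact permutation p = 0.813, adjusted 0.813). Within matings the difference was -18.6, 42.8 and -28.8 bp. It turned to 1.13, 1.81 and 0.958 bp when C7249, M05669 or the KO animal C7415 was left out. The spread between animals exceeded both differences. Regions called in further libraries can widen a locus, and C5731, C7416 and the KO animals C6733, C7415 and H03387 had such libraries. How far this moved the widths was not tested. Permutations ran over all animals and not within matings. The KO side included the F1 animals T09673 (blood) and T00436 (tail), while the other side held no F1 animal.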

How the data were processed

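Genomic DNA of mice and ES cell lines had been captured with probes for ETn long terminal repeat ends. Per the study's methods, the authors mapped mates separately to mm9 with Bowtie, removed duplicates with SAMtools, kept unique reads whose mate lay in an ETn, and joined them with bedtools. Their versions are not given in the sources here. Each deposited value is the raw count of such reads in a region of a single library, neither normalized nor pooled. RPM was each count divided by the total of its library, times 1e+06. Total depth was 525419 to 1046650 reads over 87 libraries. Regions of 10 RPM or more within 1000 bp, from all 87 libraries, were joined into loci with Python 3.11.15 and numpy 2.4.6. Reads were then summed over regions overlapping a locus. Of the 87 libraries, 76 were main libraries, the first listed of each animal or line.

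The authors' later removal of regions near annotated ETn repeats was not repeated. Instead, 298 of 902 different capture probe sequences, which stood for those within 10 edits, were searched with blastn 2.17.0 (at least 80% identity over 60 bases). NCBIM37 with the GENCODE annotation of that build gave bases and genes. Windows of 444 bp without unknown bases tiled the chromosomes 1 to 19 and X, whether or not reads map there uniquely.

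Tests were exact permutations over animals (two-sided, absolute difference of rank sums with midranks or of means) with Benjamini-Hochberg adjustment and a threshold of 0.05. Intervals are exact (Clopper-Pearson) at 95%. Scripts were tested on simulated data. The alternatives were 5 and 20 RPM, at least 10 reads, thinned libraries, other joins, other limits on reads elsewhere, coding genes or midpoints alone, a difference of means and leaving out each animal. The text names loci of 30 RPM or more, the highest locus of each animal, the 12 highest coding exon clusters and genes hit in 2 animals. Members and lists were chosen with earlier results of these data known. Gm20388, Gpr112, Stx16, Hoxd3 and Gm15783 were named after their values were seen.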

Additional observations from a re-analysis of the deposited data

Results flagged for a closer look

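Of 7 sets of values per animal examined in groups of 4 to 8 animals, 2 held an animal far from the others, and chance alone picks about 1 in 20. The mating 2 WT animal H04405 had 0 private loci, where its WT littermates had 17, 18 and 18. Its depth of 654160 reads lay between theirs. In mating 3, the WT animal M05141 had 18.2% of its private loci in genes (2 of 11), while the other WT animals of that mating had 52.0%, 52.7% and 57.1%.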

How the results depend on the processing

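The number of private loci follows the threshold, with 987 at 5 RPM and 77 at 20 RPM, and 180 when at least 10 reads were asked for. Thinning libraries, other joins and other limits on reads elsewhere gave 299 to 352, and leaving out single animals 280 to 341. Median width was 350 bp at 5 RPM and 523 bp at 20 RPM. The share in genes stayed between 46.8% and 53.9% in all 32 alternatives. Of the private loci of C7416 32.0% reached 10 RPM in its adult tail, and 48.6% of those called at 5 RPM had a read there. Leaving out single animals moved the excess of mating 3 over mating 1 from 62.5% to 89.3% and that of mating 3 over mating 2 from 46.7% to 100%, and apart from leaving out C6767 or M05141 every alternative kept the adjusted p of the 3 mating comparisons above 0.05. The width difference between WT and KO/WT and KO animals was -16.3 bp in juvenile tails alone and ran from -15.6 to 1.81 bp when single animals were left out, turning to 1.13 bp without C7249, 1.81 bp without M05669 and 0.958 bp without the KO animal C7415. The cause was not tested for any of these. Alternatives without the mating 2 parents, by strength and for juvenile tails alone were chosen after seeing the data. No paired analysis was possible because replicate numbers only follow the order in which samples are listed. Depth limits a call to 5.63 to 8.65 reads, so weaker loci were not called here.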
